A study of Mus musculus with 8 samples.

Results

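The granzymes and perforin were followed in bulk RNA sequencing of 8 mouse tumours. The 10 genes were taken by name from the deposited count table, where they are 10 of 35275 genes. They are the perforin gene Prf1 and the granzyme genes Gzma, Gzmb, Gzmc, Gzmd, Gzme, Gzmf, Gzmg, Gzmk and Gzmm. The list was drawn up knowing that Gzmf and Gzmg were nearly absent from the wild-type tumours, so the contrast between genotypes is given for these 10 genes as a description, with levels and standard errors and without a test.

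Granzymes are serine proteases that cytotoxic T cells and natural killer (NK) cells store in granules together with perforin. On contact with a target cell the granules are released, perforin forms pores in the target membrane, and the granzymes enter and cleave proteins whose cleavage leads to cell death. Granzymes A and B are the best studied. In the mouse, Gzmb lies in a gene cluster with Gzmc to Gzmg, which are known from activated T cells, NK cells and, for some members, the pregnant uterus.

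All 8 tumours carry the labels Nf2-/- and Cdkn2a-/-. Both genes were floxed, and Cre recombinase came from an adenovirus injected into the peritoneal cavity. Which cells recombined was not examined here. Of the tumours labelled Pak2-/- (Pak2 f/f before Cre), 13, 14A, 59 and 61 are peritoneal primary tumours and 14B is a secondary tumour. Primary tumours 19, 20 and 127 are labelled Pak2 wild-type. The labels give no strain, sex or age, and do not say whether the tumours came from separate animals or whether 14A and 14B share one. Every spread and p-value below is therefore a spread between these tumours.

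Total counts ran between 13469851 in tumour 14B and 20402401 in tumour 14A. Levels are given as CPM, which are counts scaled to a normalised library size over the 15412 genes tested. That size was 9646520 in tumour 14B, below its total counts. For a gene without a count the limit is taken as 3 counts, which is 0.154 to 0.186 CPM in the Pak2-/- primary tumours, 0.311 CPM in tumour 14B and 0.139 to 0.193 CPM in the wild-type tumours. These floors cover counting error only. Pak2 itself was not lower in the tumours labelled Pak2-/-, at 131 to 238 CPM in the 4 primary tumours against 90.1 to 128 CPM in the wild-type tumours, and counts over the whole gene do not check a deletion of part of it. Tumours 14A and 14B stood apart from the rest. Their summed exocrine pancreas markers were 25361 and 186655 CPM, against at most 56.7 CPM in each of the other 6 tumours, and their summed leukocyte markers were 5595 and 5000 CPM. Only 2 of the 7 pancreas markers were among the tested genes, so the pancreas sums include counts that the library size leaves out. In the other 6 tumours the leukocyte sum was 629 to 1059 CPM in Pak2-/- primaries and 563 to 989 CPM in wild-type primaries. Skeletal muscle markers summed to 12.1 to 705 CPM in the Pak2-/- primary tumours and 2503 to 28520 CPM in the wild-type tumours. Xist was at most 1.33 CPM in the Pak2-/- tumours and at 151, 459 and 26.6 CPM in wild-type tumours 19, 20 and 127. The Y-linked gene Ddx3y was at 84.2 to 104 CPM in the Pak2-/- tumours, against 1.62, 1.24 and 116 CPM in wild-type tumours 19, 20 and 127, so tumour 127 carried both signals. The part of these differences in the results below was not tested. Of 7 mesothelial markers 2 had the higher and 5 the lower mean in the Pak2-/- primary tumours, with a median log2 fold change of -0.66. Their sum was 9.97 to 349 CPM in the Pak2-/- and 34.6 to 286 CPM in the wild-type primary tumours.

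Gzmc, Gzmd, Gzme, Gzmf and Gzmg share a promoter sequence as well as a place in the genome. The stretch shown here holds a Runx match that all 5 have and the place where a second match is whole in some and broken in others, with Gzmb for comparison. Each sequence is RefSeq's for GRCm38.p6, on the minus strand, read in the direction of transcription. Capitals mark TGTGGT, the letters of a Runx motif, and the 8 bases at the place of the cyclic AMP response element (CRE) motif TGACGTCA. In Gzmb they mark TGTGGT, which occurs at 2 places, and TGAGTCA, a match to the AP-1 motif.
Gzmc, chr14:56234699-56234771: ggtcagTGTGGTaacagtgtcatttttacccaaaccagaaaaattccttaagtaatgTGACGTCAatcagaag
Gzmf, chr14:56211474-56211546: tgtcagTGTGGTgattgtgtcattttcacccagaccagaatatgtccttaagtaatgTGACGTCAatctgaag
Gzmg, chr14:56159641-56159713: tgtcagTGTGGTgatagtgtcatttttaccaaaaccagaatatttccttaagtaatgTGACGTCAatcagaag
Gzmd, chr14:56132639-56132711: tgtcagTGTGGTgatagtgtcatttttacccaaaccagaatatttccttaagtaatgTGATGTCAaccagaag
Gzme, chr14:56120672-56120744: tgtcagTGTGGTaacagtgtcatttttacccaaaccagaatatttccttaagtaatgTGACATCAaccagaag
Gzmb, chr14:56262355-56262433: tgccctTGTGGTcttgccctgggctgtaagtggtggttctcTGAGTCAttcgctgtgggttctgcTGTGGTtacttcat

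Gzmc, Gzmf and Gzmg had all 8 letters of the CRE motif. Counted from 1 at the 5′ end of TGACGTCA, Gzmd differed by C4T and Gzme by G5A. Over all 32851 RefSeq windows of 300 bases (250 before to 50 after the start), TGACGTCA was found in 1.79%, and in 3 of the 10 members. The Runx letters TGTGGT, searched on both strands, were in 16.8% of all windows and in 9 of the 10 members, all but Gzmk. On the gene's own strand they were in 8.99% of windows and in 6 members, which were Gzmb to Gzmg. The T-box letters GGTGTGA were in 3.98% of windows and in Gzmk and Gzmm. The Gzmm match was at start site 2 of that gene. A member with more than 1 start site thus had more than 1 window, so member counts and window shares are unlike measures. The AP-1 letters TGANTCA were in 7.81% of windows and in Gzmb alone among the members. The STAT letters TTCNNNGAA were in 8.30% of windows and in Gzmb and Gzmm. A match is only a run of letters, and the 5 related promoters are not independent of one another: over the 250 bases before the start, Gzmd and Gzme were 95.6% identical and Gzmc was 84.4% to 86.5% identical to the other 4.

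All 10 members passed the filter on low counts. Their mean level was higher in the Pak2-/- than in the wild-type primary tumours for 9 members, and lower for Gzmm. In 4 of the 10 members (40%) every Pak2-/- primary tumour lay above every wild-type tumour, and in none did every one lie below. Of the 15412 genes tested, 5.07% lay apart in the upward direction and 8.93% in the downward direction. The median log2 fold change (Pak2-/- minus wild-type) of the members was 1.93, and that of all tested genes was 0.06. Setting Gzmg at its lower bound could not move the members' median, because that bound still lies above the middle values. Because the list was chosen on this contrast, nothing is read from these counts. In bulk tissue, fewer cells of a type and less RNA per cell cannot be told apart.

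**Figure D1:**
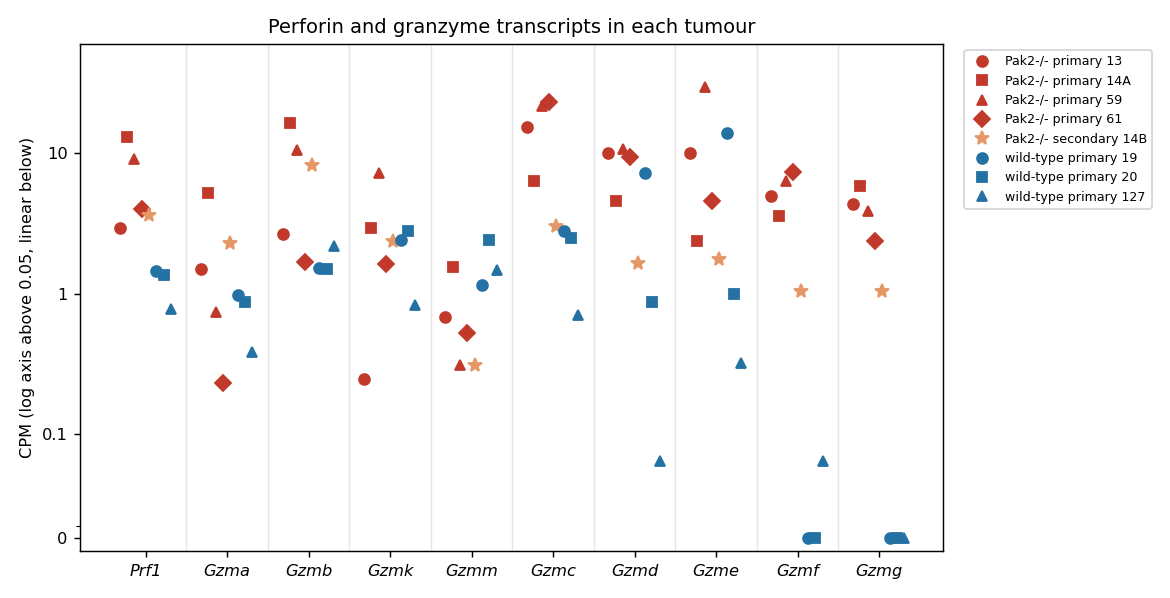
CPM of each member (y axis, logarithmic above 0.05 and linear below) in each of the 8 tumours, with Pak2-/- primary tumours in red, the secondary tumour 14B in orange and wild-type primary tumours in blue. Gzmf and Gzmg lie at 2.37 to 7.34 CPM in the red points and at 0 or 0.0642 CPM in the blue points, while Gzmk and Gzmm overlap between the groups.

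Gzmf and Gzmg were absent or close to absent in the wild-type tumours, which is how they came to be listed. Gzmf, at 56205266 to 56211407 of chromosome 14 on the minus strand (GRCm38), had 80, 69, 102 and 127 counts in Pak2-/- tumours 13, 14A, 59 and 61 and 10 counts in 14B, against 0, 0 and 1 counts in wild-type tumours 19, 20 and 127. Its level averaged 5.53 ± 1.64 CPM in the Pak2-/- primary tumours (SD, n = 4), and the single wild-type count stood at 0.0642 CPM in tumour 127. Pooled over libraries, 378 counts in Pak2-/- and 1 in wild-type tumours gave a ratio of 291, with a 95% exact conditional interval of 52.0 to 11534 that covers counting error only. The interval is wide because it rests on 1 wild-type count. It leaves out the spread between tumours. Gzmf was listed on this contrast, so the interval is not a test of it.

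Gzmg, at 56156582 to 56159579 of chromosome 14 on the minus strand, had 70, 113, 63 and 41 counts in Pak2-/- tumours 13, 14A, 59 and 61 and 10 in 14B, against 0 counts in each of wild-type tumours 19, 20 and 127. Its level was 4.10 ± 1.42 CPM in the Pak2-/- primary tumours (SD, n = 4). This was at least 23.8-fold higher than the mean wild-type floor of 0.173 CPM, taken as 3 counts in each library. No wild-type tumour had a count of Gzmg, although tumour 19 had 156 counts of Gzmd and 301 of Gzme, the genes closest to it in sequence.

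Gzmc, the member nearest to Gzmb along the chromosome, was highest in tumours 59 and 61. It stood at 15.4, 6.32, 21.6 and 23.1 CPM in Pak2-/- tumours 13, 14A, 59 and 61 and at 3.01 CPM in 14B, against 2.78, 2.48 and 0.706 CPM in wild-type tumours 19, 20 and 127. The primary groups did not overlap, and 14A was the lowest of its group. The means were 16.6 ± 7.62 CPM in the Pak2-/- and 1.99 ± 1.12 CPM in the wild-type primary tumours (SD, n = 4 and 3), a log2 fold change of 3.07 (SE 0.67).

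Gzmd and Gzme showed the same wild-type exception, tumour 19. Gzmd stood at 9.97, 4.57, 10.7 and 9.36 CPM in Pak2-/- tumours 13, 14A, 59 and 61 and at 1.66 CPM in 14B, against 7.23, 0.869 and 0.0642 CPM in wild-type tumours 19, 20 and 127. Gzme stood at 10.1, 2.36, 29.8 and 4.56 CPM in the Pak2-/- tumours in the same order and at 1.76 CPM in 14B, against 14.0, 0.993 and 0.321 CPM in wild-type tumours 19, 20 and 127. Tumour 19 lay within the Pak2-/- range for both genes, and the wild-type tumours 20 and 127 lay below it. The log2 fold change was 1.68 (SE 1.19) for Gzmd and 1.22 (SE 1.36) for Gzme. Without wild-type tumour 19 it was 4.19 (SE 1.07) for Gzmd and 4.14 (SE 1.35) for Gzme, and neither gene overlapped between the groups. The wild-type side then rested on 14 and 1 counts of Gzmd and 16 and 5 of Gzme in tumours 20 and 127. Other tumours moved the values the other way. Gzme was at 0.16 (SE 1.33) without Pak2-/- tumour 59, at 0.74 (SE 1.51) without wild-type tumour 20 and at 0.65 (SE 1.32) without wild-type tumour 127, and Gzmd was at 1.10 (SE 0.88) without tumour 127.

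Prf1, which encodes the pore-forming protein, is on chromosome 10, like the granzyme gene Gzmm. Prf1 lies at 61297836 to 61304263 on the plus strand. Its level was 2.91, 13.0, 9.07 and 3.99 CPM in Pak2-/- tumours 13, 14A, 59 and 61 and 3.63 CPM in 14B, against 1.44, 1.37 and 0.770 CPM in wild-type tumours 19, 20 and 127. Every Pak2-/- tumour was above every wild-type tumour, and 14A was the highest. The means were 7.24 ± 4.69 CPM in Pak2-/- and 1.19 ± 0.366 CPM in wild-type primary tumours (SD, n = 4 and 3), a log2 fold change of 2.62 (SE 0.67), and of 2.17 (SE 0.60) without tumour 14A.

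Gzmb encodes granzyme B, which cleaves caspases and their substrates after aspartate. Gzmb stood at 2.66, 16.3, 10.6 and 1.68 CPM in Pak2-/- tumours 13, 14A, 59 and 61 and at 8.19 CPM in 14B, against 1.53, 1.49 and 2.18 CPM in wild-type tumours 19, 20 and 127. Tumours 14A and 59 were high, and tumour 61 lay inside the wild-type range, so the groups overlapped. The log2 fold change was 2.19 (SE 0.86), and 1.55 (SE 0.76) without tumour 14A.

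Gzma encodes granzyme A, a protease that cuts after basic residues, and lies with Gzmk on chromosome 13. Gzma stood at 1.49, 5.24, 0.741 and 0.231 CPM in Pak2-/- tumours 13, 14A, 59 and 61 and at 2.28 CPM in 14B, against 0.974, 0.869 and 0.385 CPM in wild-type tumours 19, 20 and 127. The Pak2-/- tumours covered the whole wild-type range, and tumour 61 had only 4 counts. The log2 fold change of 1.39 (SE 1.02) was 0.16 (SE 0.78) without tumour 14A.

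Gzmk, whose product has a similar preference for basic residues, ranged more widely in the Pak2-/- than in the wild-type tumours. It stood at 0.248, 2.93, 7.28 and 1.62 CPM in Pak2-/- tumours 13, 14A, 59 and 61 and at 2.38 CPM in 14B, against 2.41, 2.79 and 0.834 CPM in wild-type tumours 19, 20 and 127. Its log2 fold change was 0.60 (SE 0.996) and changed sign without tumour 59, to -0.33 (SE 0.92). Gzmk overlaps Esm1 on the other strand, but their exons share 0 bases.

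Gzmm, expressed mainly by NK and other innate lymphocytes, was the member with the lower mean. It stood at 0.681, 1.54, 0.309 and 0.520 CPM in Pak2-/- tumours 13, 14A, 59 and 61 and at 0.311 CPM in 14B, against 1.16, 2.42 and 1.48 CPM in wild-type tumours 19, 20 and 127. Only tumour 14A among the Pak2-/- primaries reached the wild-type range. The log2 fold change was -1.11 (SE 0.64), and -1.71 (SE 0.57) without tumour 14A, where the groups no longer overlapped.

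The mix of granzymes also differed from tumour to tumour. Compared per kilobase of gene length, Gzmc to Gzmg made up 91.8%, 53.8%, 84.6% and 94.2% of the summed granzyme CPM per kb in Pak2-/- tumours 13, 14A, 59 and 61 and 46.7% in 14B, against 83.8%, 43.3% and 24.8% in wild-type tumours 19, 20 and 127. Their share was highest in tumours 61 and 13 and lowest in wild-type tumour 127, and the groups overlapped because of tumours 14A and 19. The summed level of Gzmc to Gzmg was 48.0, 24.4, 77.7 and 50.1 CPM per kb in the Pak2-/- primary tumours in the same order and 9.13 CPM per kb in 14B, against 25.6, 4.64 and 1.24 CPM per kb in wild-type tumours 19, 20 and 127. Gzma, Gzmb, Gzmk and Gzmm together stood at 4.29, 20.9, 14.2 and 3.09 CPM per kb in the Pak2-/- primaries and 10.4 CPM per kb in 14B, against 4.94, 6.06 and 3.76 CPM per kb in the wild-type tumours. Both sums overlapped between the groups, the first because wild-type tumour 19 lay above Pak2-/- tumour 14A.

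The leading granzyme per kilobase was Gzmc in Pak2-/- tumours 13 and 61 and in wild-type tumour 20. It was Gzme in Pak2-/- tumour 59 and wild-type tumour 19, and Gzmb in tumours 14A, 14B and wild-type 127. By mean CPM per kb, the Pak2-/- primary tumours ran from Gzmc at 17.8 ± 8.16, Gzme at 12.7 ± 13.5 and Gzmd at 8.97 ± 2.87 down to Gzmm at 0.593 ± 0.421 (SD, n = 4). Each member's mean ± SD overlapped that of the next in this order. In the wild-type tumours Gzme at 5.51 ± 8.33 led on the strength of tumour 19, followed by Gzmd at 2.82 ± 4.07 and Gzmc at 2.13 ± 1.20, with Gzmf and Gzmg last (SD, n = 3). From Gzme down to Prf1 each mean ± SD overlapped that of the next, while Prf1 at 0.580 ± 0.178 lay above Gzmf at 0.0236 ± 0.0409.

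**Figure D2:**
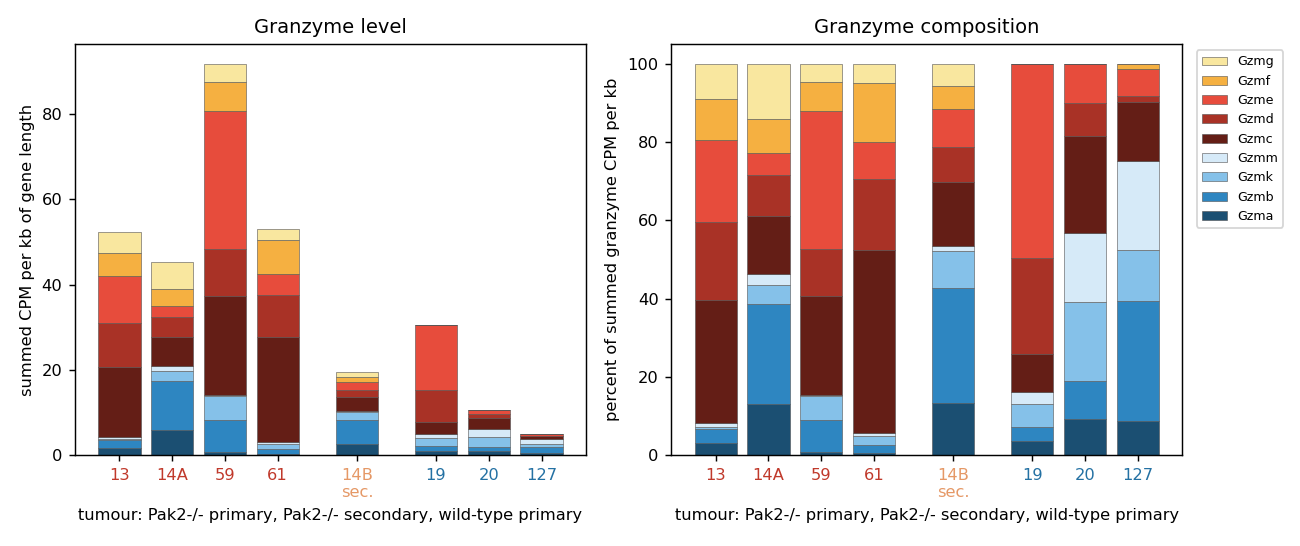
Left, the 9 granzymes stacked as CPM per kb of gene length, and right, each granzyme as a percent of that sum, for Pak2-/- primary tumours (red labels), secondary tumour 14B (orange) and wild-type primary tumours (blue). Gzmc to Gzmg (reds and yellows) make up 53.8% to 94.2% in the Pak2-/- primary tumours and 24.8% to 83.8% in the wild-type tumours.

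The secondary tumour 14B kept some members within the range of the Pak2-/- primary tumours and not others. Gzma, Gzmb, Gzmk, Gzmm and Prf1 lay within that range. Gzmc, Gzmd, Gzme, Gzmf and Gzmg all lay below it, at 1.04 to 3.01 CPM. Against tumour 14A, the log2 difference of 14B was -0.40 for Gzme, -0.98 for Gzmb and -2.36 for Gzmg. With 1 secondary tumour these differences have no replicate check.

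Gzmb and Gzmc to Gzmg lie in a row on the minus strand of chromosome 14, so position could be set beside level. Counted from the start of Gzmb, Gzmc begins at 27.6 kb, Gzmf at 50.9 kb, Gzmg at 102.7 kb, Gzmd at 129.7 kb and Gzme at 141.6 kb. Gzmn, between Gzmf and Gzmg at 87.7 kb, had 2 counts in wild-type tumour 19 and 0 in the other 7 tumours. Gzmf and Gzmg thus bracket a gene that was near or at 0 in all tumours.

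Beyond Gzme the cluster goes on with proteases of mast cells, basophils and neutrophils, of which 2 of the 4 tested had the higher and 2 the lower mean in the Pak2-/- tumours. Mcpt4, a mast cell chymase, stood at 2.72, 6.63, 17.2 and 8.49 CPM in Pak2-/- tumours 13, 14A, 59 and 61 and 10.6 CPM in 14B, against 35.7, 48.7 and 6.87 CPM in wild-type tumours 19, 20 and 127. Its log2 fold change was -1.78 (SE 0.77, edgeR adjusted p = 0.393). Cma1, another chymase, averaged 7.85 ± 5.50 CPM in the Pak2-/- and 22.4 ± 15.6 CPM in the wild-type primary tumours, with a log2 fold change of -1.50 (SE 0.85, edgeR adjusted p = 0.519). Mcpt8, a basophil protease, had a log2 fold change of 0.70 (SE 1.41, edgeR adjusted p = 0.865). Mcpt2 had one of 2.54 (SE 1.30, edgeR adjusted p = 0.471) at levels of at most 1.80 CPM. Ctsg, Mcpt1, Mcpt9 and Cma2 were too low to be tested, with Cma2 at 0 in all 7 primary tumours. The tested mast cell and basophil markers, 10 of 10, include Mcpt4, Cma1 and Mcpt8, and 7 of the 10 had the lower mean in the Pak2-/- tumours.

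**Figure D3:**
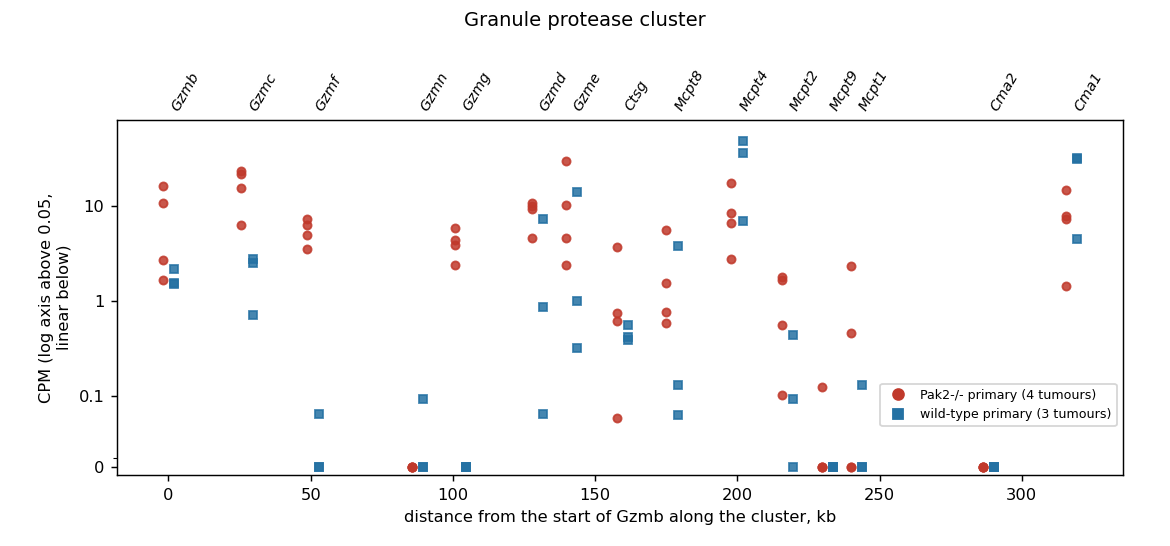
CPM (y axis, logarithmic above 0.05 and linear below) of the protease genes against their distance from the start of Gzmb in kb, in 4 Pak2-/- primary tumours (red circles) and 3 wild-type primary tumours (blue squares). Gzmc, Gzmf and Gzmg separate the groups, Gzmn lies at 0 in the Pak2-/- tumours, and Mcpt4 and Cma1 reach 48.7 and 31.9 CPM in wild-type tumours.

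The counts of Gzmd, Gzme, Gzmf and Gzmg depend on how far their reads can be told apart. In GENCODE M21 transcripts, Gzmd and Gzme were 94.8% identical over 916 aligned bases, Gzmd and Gzmg 90.5%, Gzme and Gzmg 90.8%, and Gzmf 87.6% to 88.7% identical to these 3. Gzmc was 76.2% to 77.3% identical to Gzmd to Gzmg. Of all stretches of 50 bases, 21.9% in Gzmd, 20.6% in Gzme, 19.8% in Gzmg, 7.36% in Gzmf and 4.14% in Gzmc also occurred in another granzyme transcript. At 75 bases it was 5.73% in Gzmd, 4.75% in Gzme and 6.83% in Gzmg, and 0% in Gzmf and Gzmc. At 100 bases only Gzmd (0.231%) and Gzmg (0.247%) shared any, and at 150 bases none did. The read length is not given in the sources used here, so the split of counts among these 4 genes is uncertain to that extent. Gzma, Gzmb, Gzmk, Gzmm and Prf1 shared no stretch of 50 bases with another member.

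A stretch of exon 2 shows what a read there could use to tell them apart. It is less alike than the transcripts as a whole, so it is not typical of them. These are coding bases 97 to 171 on GRCm38, minus strand, with capitals marking bases that differ from Gzmd.
Gzmd, chr14:56131265-56131339: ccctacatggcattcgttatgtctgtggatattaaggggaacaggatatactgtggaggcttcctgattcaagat
Gzme, chr14:56119333-56119407: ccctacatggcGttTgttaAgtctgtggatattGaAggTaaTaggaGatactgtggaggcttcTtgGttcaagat
Gzmg, chr14:56158330-56158404: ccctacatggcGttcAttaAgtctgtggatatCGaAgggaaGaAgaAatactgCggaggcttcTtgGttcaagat
Gzmf, chr14:56206944-56207018: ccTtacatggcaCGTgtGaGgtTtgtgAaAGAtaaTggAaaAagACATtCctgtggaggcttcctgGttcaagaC

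Over these 75 bases, Gzme differed from Gzmd at 10 positions, Gzmg at 12 and Gzmf at 21. Gzmf also overlaps the antisense gene Gm4022, which covers 151 of its 919 exonic bases. The strand setting of the counting is not given in the sources used here, so reads of the 2 genes cannot be told apart, and Gm4022 itself was not analysed here.

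Markers of the cells that make granzymes were read in the same tumours. The NK cell list summed to 42.0, 75.1, 177 and 71.7 CPM in Pak2-/- tumours 13, 14A, 59 and 61 and 43.1 CPM in 14B, against 8.81, 33.2 and 14.5 CPM in wild-type tumours 19, 20 and 127. In tumour 13, Klra4 alone gave 34.0 of the 42.0 CPM. With Klra4 left out, a choice made after seeing the data, the sums were 7.99, 74.01, 101 and 41.6 CPM in the Pak2-/- primary tumours in the same order and 36.2 CPM in 14B, against 8.72, 32.3 and 14.5 CPM in the wild-type tumours, and the groups overlapped. All 12 of the 12 tested NK markers had the higher mean in the Pak2-/- tumours, and 4 of the 12 lay apart upward, against 5.07% of all tested genes. EdgeR called 0 of the 12 and limma-voom 0, while DESeq2 called 4, which were Klra4, Klra7, Klrb1c and Klri2, against 2.01% of all tested genes called higher by DESeq2. At an unadjusted p under 0.05, edgeR had 6 of the 12 higher, and of all tested genes 4.39% were higher and 8.55% lower. The NK receptor gene Klra4 stood at 34.0, 1.08, 75.8 and 30.1 CPM in Pak2-/- tumours 13, 14A, 59 and 61, against 0.0927, 0.869 and 0 CPM in wild-type tumours 19, 20 and 127 (edgeR adjusted p = 0.151). Klri2 and Klra8, also NK receptor genes, had no counts in any wild-type tumour. Klra genes differ in number and sequence between mouse strains, and the labels give no strain, so whether these receptor counts track NK cells across the groups was not tested. Ncr1, which defines NK cells, was at 0.557 to 3.18 CPM in the Pak2-/- primaries and 0.139 to 0.834 CPM in the wild-type tumours.

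T cell markers also had the higher mean in the Pak2-/- primary tumours in 14 of 14 tested genes (median 1.53 on the log2 scale). Of all 15412 tested genes, 8403 had the higher mean. Tumour 14A was the highest tumour in each of the 14 T cell genes, which raised their Pak2-/- means. The sums of the T cell markers overlapped between the groups. The T cell list summed to 7.31, 543, 173 and 65.2 CPM in Pak2-/- tumours 13, 14A, 59 and 61 and 81.7 CPM in 14B, against 41.7, 104 and 45.8 CPM in wild-type tumours 19, 20 and 127. Tumour 13 had the lowest sum of all 8, with Cd3d and Cd5 at 0 and Cd3e at 0.310 CPM, and Nkg7, a granule protein of cytotoxic cells, at 0.495 CPM. The same tumour had 249 counts of Gzmc, 163 of Gzme and 161 of Gzmd. Tumour 14A, with the highest T cell sum and with Cd8a at 52.9 CPM, had the highest Prf1, Gzmb and Gzma of the Pak2-/- primary tumours and the lowest Gzmc, Gzmd, Gzme and Gzmf, but also the highest Gzmg. The part of cell content in these levels was not tested.

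**Figure D4:**
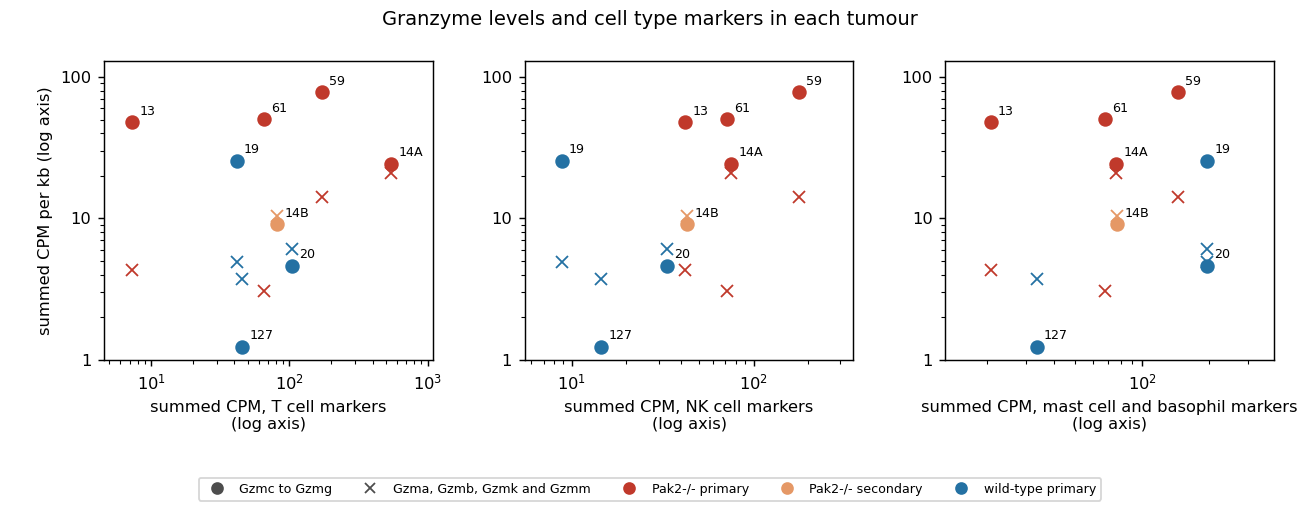
Summed CPM per kb (y axis, logarithmic) of Gzmc to Gzmg (filled circles) and of Gzma, Gzmb, Gzmk and Gzmm (crosses) against the summed CPM (x axis, logarithmic) of T cell, NK cell, and mast cell and basophil markers, for 4 Pak2-/- primary tumours, secondary tumour 14B and 3 wild-type primary tumours. Tumour 13 lies at 7.31 CPM of T cell markers and 48.0 CPM per kb of Gzmc to Gzmg, and tumour 127 at 45.8 CPM and 1.24 CPM per kb.

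Genes that act with granzymes and perforin were taken from 8 lists that hold none of the 10 members. Of 75 genes, 73 were found and 64 tested. Their mean was higher in the Pak2-/- primary tumours for 48 and lower for 16, with a median log2 fold change of 0.36. EdgeR's quasi-likelihood test called 0 of the 64 after Benjamini-Hochberg adjustment over all tested genes, against 0.0714% of all 15412 genes (0.0195% higher and 0.0519% lower). At an unadjusted p under 0.05, 3 of the 64 (4.69%) were higher and 0 lower, against 12.9% of all genes in either direction. DESeq2 called 2 of the 64, Serpinb9b and Eomes, against 7.46% of all tested genes, and limma-voom called 0. Some genes, among them Ctsh, Was, Stx11 and Tnf, had no adjusted p in DESeq2 and could not be called by it.

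Of the 64 tested genes of these lists, 1 (1.56%) lay apart, upward, against 5.07% of all tested genes upward and 8.93% downward. This was Serpinb9b, one of the serpins that inhibit granzymes. It stood at 107, 4.01, 11.1 and 31.5 CPM in Pak2-/- tumours 13, 14A, 59 and 61 and at 19.8 CPM in 14B, against 2.55, 0.621 and 0.257 CPM in wild-type tumours 19, 20 and 127. Tumour 13, low in T cell markers, was the highest. The log2 fold change was 5.06 (SE 1.42, edgeR adjusted p = 0.178). The related inhibitors Serpinb6b and Serpinb9, the second of which inhibits granzyme B, had log2 fold changes of 0.93 (SE 0.40, edgeR adjusted p = 0.387) and 0.69 (SE 0.42, edgeR adjusted p = 0.550). Without tumour 14A these were 0.54 (SE 0.28) for Serpinb6b and 0.29 (SE 0.31) for Serpinb9.

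Among the transcription factors, Eomes, a T-box factor of NK and memory T cells, stood at 0.805, 21.3, 9.20 and 5.54 CPM in Pak2-/- tumours 13, 14A, 59 and 61 and 2.28 CPM in 14B, against 0.788, 1.80 and 0.449 CPM in wild-type tumours 19, 20 and 127. Its log2 fold change was 3.20 (SE 1.09, edgeR adjusted p = 0.268), and tumour 13 lay within the wild-type range. Runx3, another factor of cytotoxic cells, had the lower mean in Pak2-/- tumours, at 20.9 ± 8.58 against 41.9 ± 23.9 CPM in wild-type tumours (SD, n = 4 and 3; log2 fold change -0.98, SE 0.48, edgeR adjusted p = 0.445). Without wild-type tumour 19 the log2 fold change of Runx3 was -0.43 (SE 0.43). Nfil3, which NK cell development requires, had a log2 fold change of -0.58 (SE 0.27, edgeR adjusted p = 0.425). Of the 10 tested factors 5 had higher and 5 lower means.

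Of the 13 tested cytokines and receptors 11 had higher means in the Pak2-/- tumours. Il2rb, the receptor subunit shared by interleukins 2 and 15, stood at 5.76, 51.6, 52.7 and 22.4 CPM in Pak2-/- tumours 13, 14A, 59 and 61, against 7.79, 11.4 and 5.45 CPM in wild-type tumours 19, 20 and 127 (log2 fold change 2.03, SE 0.75, edgeR adjusted p = 0.311). Again tumour 13 stayed within the wild-type range. Il21r had a log2 fold change of 2.09 (SE 0.92, edgeR adjusted p = 0.401), which was 0.63 (SE 0.34) without tumour 14A. Tgfb1 had one of 0.85 (SE 0.38, edgeR adjusted p = 0.412). Il2 had no counts in any of the 8 tumours.

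Granule storage and release genes had higher means throughout, with 6 of 6 and 9 of 9 tested genes. EdgeR, DESeq2 and limma-voom called 0 of them, and 0 had an unadjusted p under 0.05 in edgeR. DESeq2 gave no adjusted p for Ctsh, Was and Stx11, so it could not call them. Nkg7 had a log2 fold change of 1.93 (SE 1.08, edgeR adjusted p = 0.509) and Ctsh, a protease of the granule pathway, one of 1.75 (SE 0.98, edgeR adjusted p = 0.512). Among genes of granule release, Was had a log2 fold change of 1.36 (SE 0.84, edgeR adjusted p = 0.553), Vamp8 one of 0.67 (SE 0.41, edgeR adjusted p = 0.548) and Stx11 one of 1.12 (SE 0.85, edgeR adjusted p = 0.622). The values of Ctsh and of these 3 genes rested on tumour 14A. Without it, Ctsh was at 0.10 (SE 0.31), Was at 0.02 (SE 0.32), Vamp8 at 0.28 (SE 0.29) and Stx11 at -0.30 (SE 0.29). Tumours 14A and 14B, also the highest in leukocyte markers, were the highest in Ctsh, Was, Stx11 and Tnf.

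Death ligands and receptors and the substrates of granzymes had members on both sides. Of 6 ligands and receptors, 4 had higher and 2 lower means, and of 11 substrates and effectors, 6 higher and 5 lower. Fasl, the other killing ligand of cytotoxic lymphocytes, had a log2 fold change of 1.87 (SE 1.02, edgeR adjusted p = 0.503), which was 0.82 (SE 0.85) without tumour 59. Its receptor Fas had one of -0.90 (SE 0.64, edgeR adjusted p = 0.598), which was -0.56 (SE 0.40) without tumour 13 and -1.36 (SE 0.61) without tumour 14A.

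**Figure D5:**
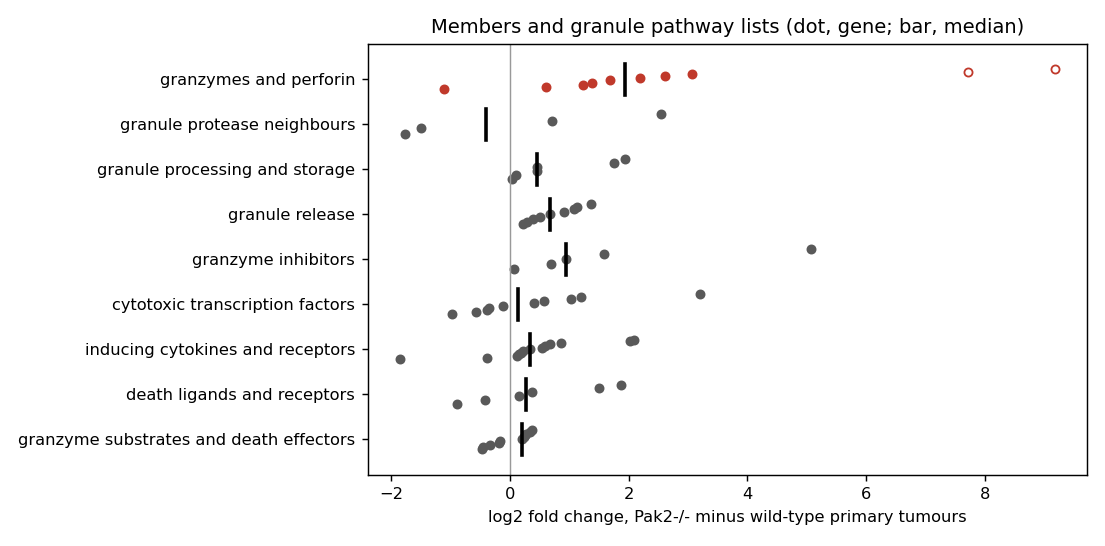
Log2 fold change, Pak2-/- minus wild-type primary tumours (x axis), of each tested gene (dots) in the member list (red) and in 8 pathway lists (grey), with each list's median as a bar. Open red dots mark Gzmf and Gzmg, whose fitted values depend on the prior count because the wild-type tumours held 1 and 0 counts. Serpinb9b lies at 5.06 and Eomes at 3.20, and the members' median is 1.93.

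Tested genes outside the member list were searched, leaving out those with uninformative symbols such as Gm and Rik names. Those whose pattern over the 7 primary tumours was most like that of 3 members were found by the root mean square difference of centred log2 CPM. For Gzmf these were Rps3a2 (0.651), Gsg1 (0.929) and, a little further off, Rps3a3, with Gzmg at 0.661. Rps3a2 averaged 112 ± 33.5 CPM in the Pak2-/- and 3.98 ± 0.910 CPM in the wild-type tumours, and Rps3a3 averaged 329 ± 53.1 CPM in the Pak2-/- and 3.81 ± 2.45 CPM in the wild-type tumours (SD, n = 4 and 3). Both resemble Rps3a1, a ribosomal protein gene, and their counts are uncertain where reads match more than 1 copy. For Prf1 the nearest were Tlr1 (0.382), Naip5 (0.395) and Hoxb5os (0.497), with Gzmb at 0.697. For Gzmb they were Insl3 (0.417), Sdk1 (0.476) and Tmem26 (0.529). Among the primary tumours, Prf1, Tlr1 and Naip5 were highest in 14A and Hoxb5os in 59.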

How the data were processed

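The authors deposited unnormalised read counts per gene, per the file headers, with 1 column per tumour (8 columns, 0 of other samples). STAR, HTSeq, GRCm38 and mm10 are named per the submitters' processing notes, without versions. Annotation, strand setting and read length are not given. Genes were kept by filterByExpr (minimum count 10, total 15), leaving 15412 of 35275. Counts were fitted with edgeR 4.0.16 (TMM, quasi-likelihood F test, Benjamini-Hochberg at 0.05) on the 7 primary tumours, with limma 3.58.1 voom and DESeq2 1.42.0 as alternatives in R 4.3.3. The log2 fold changes are Pak2-/- minus wild-type. Each SE follows from the F statistic. CPM uses TMM factors over all 8 tumours, with a prior count of 2 for log2 values. The fit was tested on simulated data. Members, lists and named genes were chosen with earlier results of these data known. The named genes are the members, up to 3 genes per list with the lowest p and all protease neighbours. Added to these are the 3 nearest genes with informative symbols for Gzmb, Gzmf and Prf1. Promoters came from RefSeq (GRCm38.p6), transcripts from GENCODE M21. Members' RefSeq proteins were not analysed here. Settings tried were other normalisations, filters and tools, each primary tumour left out, 14B added or as its own group, and, chosen after seeing the data, Gzmd to Gzmg summed and Klra4 left out of the NK sum. Not every gene that this rule names is reported here.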

Additional observations from a re-analysis of the deposited data

Results flagged for a closer look

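In each of these genes 1 of the 4 Pak2-/- primary tumours lay far from the other 3, by Dixon's ratio of the gap to the range. Tumour 14A was far above the others in Ctsh (1234 CPM), Was (205 CPM), Stx11 (85.9 CPM), Il21r (228 CPM) and Tnf (23.2 CPM). Tumour 59 was above in Mcpt9 (0.123 CPM, against 0 in the other 3, a level under the floor of 3 counts). Chance flags about 1 in 20 groups. None of the 10 members was flagged in this way. Tumour 14A also had the highest leukocyte sum of the primary tumours (5595 CPM), whose part in these levels was not tested.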

How the results depend on the processing

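The number of genes called in the primary comparison was 11, and it moved with the setting: 20 with at least 1 CPM in 3 tumours, 1149 with DESeq2, 25 with limma-voom, 191 with tumour 14B added and 4 with 14B as its own group, and 0 to 59 with 1 tumour left out (0 without 13, 59, 61 or 20, 1 without 127, 8 without 14A and 59 without 19). The cause was not tested. DESeq2 called 2 pathway genes, and every other setting 0. Members lying apart numbered 4 to 6. This range is no check, because leaving a tumour out can hardly lower the number. The DESeq2 and limma-voom settings compare the same levels as the main one. Without 14A, Gzmd was added above and Gzmm below. Without 61 or 127, Gzmb was added, and without 19, Gzmd and Gzme. Of 584 single-gene log2 fold changes under 17 alternatives, 579 kept their direction. That number is no check either. The members were listed on this contrast, and the other genes, apart from the protease neighbours, were named for a low p in it. The 5 that reversed were Gzmk under limma-voom (-0.018) and without 59, Mcpt8 without 59, and Stx11 and Tnf without 14A. With 1 tumour left out, Gzmk ranged over -0.33 to 0.99, Mcpt8 over -0.46 to 4.39, Stx11 over -0.30 to 1.42 and Tnf over -0.30 to 1.85. No paired analysis was possible because the groups share no replicate numbers in the labels. Depth limits Gzmf and Gzmg in the wild-type tumours to the floors given above. Gzmm, Gzma and Gzmk rest on as few as 3 or 4 counts in a tumour. Gzmd and Gzme had only 1 and 5 counts in wild-type tumour 127.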
